A study of Mus musculus with 4 samples.

Results

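The splicing regulators of the mouse kidney were followed through 23 clusters of single nuclei and 4 conditions, using the mean normalised expression of each gene in each cluster and mouse. Members were chosen by name from the 19609 gene rows of the averaged table, as every row that begins with *Srsf* and a number, *Hnrnp*, or *Rbm* and a number, together with *Tra2a*, *Tra2b* and *Clk1* to *Clk4*. This gave 70 rows, namely 10 *Srsf*, 2 *Tra2*, 4 *Clk*, 20 *Hnrnp* and 34 *Rbm* rows, of which 2 (*Rbm3os* and *Rbm46os*) are antisense transcripts. Another 8 protein-coding genes whose names fit the rule, among them *Rbm4*, *Rbm12* and *Srsf12*, were not analysed here.

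Kidney cortex was taken from male mice of mixed strain background that carried either the TRE-hKLF6 transgene alone (control) or CAG-rtTA with TRE-hKLF6, in which the ubiquitous CAG promoter drives the reverse transactivator and human KLF6 is overexpressed in all cells (hKLF6OE). All mice, controls included, ate doxycycline diet (200 mg/kg) for 1 week. Mice of each genotype received a single injection of aristolochic acid I (AAI, a plant nephrotoxin that enters proximal tubule cells) at 2 mg/kg or no AAI, and kidneys were collected 24 h later. Each of the 4 conditions was 1 mouse, so no value has a replicate error and no difference was tested; the human transgene has no row in the table.

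Splicing regulators decide which exons of a pre-mRNA are joined. The SR proteins (*Srsf* genes and the SR-like *Tra2a* and *Tra2b*) bind exonic enhancers and promote exon use, CLK kinases phosphorylate SR proteins and release them from nuclear speckles, hnRNP proteins coat nascent RNA and often repress exons, and the RBM genes are a mixed group that shares little more than an RNA recognition motif. Many of these genes control their own level by including an exon with an early stop codon, a so-called poison exon, which sends the transcript to nonsense-mediated decay.

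Poison exons are shown for members whose level differed most or that are well-known examples, because a gene-level table adds such transcripts to the coding ones. In the GENCODE M21 annotation (GRCm38, the same assembly as mm10), 14 members had an exon of a decay-annotated transcript that overlaps no exon of a coding transcript and carries the stop codon, including 5 *Srsf* members and both *Tra2* members. Each run below starts at the first base of that exon and ends with its stop codon, which is in capitals.
Tra2a chr6:49252965-49253108 (-): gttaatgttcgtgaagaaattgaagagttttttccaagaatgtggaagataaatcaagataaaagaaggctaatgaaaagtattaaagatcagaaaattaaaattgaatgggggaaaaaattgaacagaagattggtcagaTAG
Tra2b chr16:22259181-22259261 (-): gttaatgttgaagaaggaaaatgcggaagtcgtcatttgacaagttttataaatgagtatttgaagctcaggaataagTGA
Srsf3 chr17:29039454-29039487 (+): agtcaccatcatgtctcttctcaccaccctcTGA
Srsf7 chr17:80205054-80205081 (-): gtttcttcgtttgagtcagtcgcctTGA
A decay-annotated transcript was present for 37 of 68 protein-coding members (54.4%), against 26.1% of the 15878 protein-coding rows of the table. The share was 9 of 10 for *Srsf*, 10 of 20 for *Hnrnp* and 12 of 32 for *Rbm*, and every *Tra2* and *Clk* gene had 1 or more. Reads from these exons cannot be told apart from coding reads in the values that follow.

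All values are mean expression in units where each cluster of each mouse sums to 10000. A difference is log2(value + 1) in one group of nuclei minus that in another. A row was compared when it reached 0.5 on at least 1 side in both mice or pairs of mice, and was counted as higher or lower when the difference was at least 0.2 in the same direction in both. On this scale changes in low rows are understated. Shares of all rows refer to both mice or pairs together. Counts in 1 mouse or pair alone have no share of all rows beside them and are not to be set against those shares. Members are ranked by the smaller of the 2 differences in size, so the first need not be the largest in either mouse or pair. Normal proximal tubule (PT) is the mean of the 5 clusters without an injury name, and the cell types outside the PT are the mean of all 16 clusters that are not PT. Of the 70 members, 24 passed the minimum in no comparison of groups of clusters, among them *Srsf9*, *Hnrnpa1*, *Hnrnpab*, *Rbm3* (cold-induced RNA-binding protein) and *Rbm8a* (exon junction complex). Of these 24, 5 (*Hnrnpab*, *Rbm8a*, *Rbm18*, *Rbm20* and *Rbm41*) were compared with and without AAI within single clusters, and 9 of the 70 stayed under 0.5 in every cluster and mouse.

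Cluster names follow the study's marker tables, and most, but not all, were borne out by their markers. *Nphs1* was highest in podocytes, *Slc12a1* in LH-AL-1, *Slc12a3* in DCT, *Slc26a4* in the IC-B clusters, and *Cd74* in Macrophage. EC-1 was mixed. Over 5 endothelial markers it summed to 17.11 to 20.03 in the 4 mice, against 22.1 to 40.19 in Macrophage. Over 3 thick ascending limb markers it summed to 39.82 to 47.75. LH-DL summed to as much as 10.2 over 3 podocyte markers. On average the mesangial marker *Itga8* was highest in Macrophage and the principal cell marker *Scnn1g* in CNT. Of 6 injury markers, *Polr2a* and *Klf6* were on average highest in cluster 6 (InjuredPT-A). *Havcr1*, *Krt20*, *Cxcl1* and *Il34* were highest in cluster 12 (InjuredPT-B). In the AAI mice the 6 summed to 38.6 and 33.9 in cluster 6 and 18.2 and 21.8 in cluster 12. In normal PT they summed to at most 8.31 and 8.67. Summed over 6 PT markers, the outside clusters reached 283, in the MC cluster of the hKLF6OE mouse, against 194 to 295 in the normal PT clusters of that mouse, so PT transcripts were present in cells named otherwise. The table resolves some clusters poorly. Between 18.1% and 63.4% of rows were at 0 in outside clusters, and 4 clusters (IC-B-2, Macrophage, LH-DL and LH-AL-3) had 50% or more of rows at 0 in at least 1 mouse. Numbers of nuclei per cluster were not used here.

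Cluster 6 (InjuredPT-A) held the highest share of splicing regulator expression. The 70 members made up 1.46% of the expression of cluster 6 in the control + AAI mouse and 1.38% in the hKLF6OE + AAI mouse. In the normal PT clusters of the same mice the share lay between 0.768% and 0.929%, and in the outside clusters between 0.670% and 0.967%. Without AAI, cluster 6 had 0.747% in the control mouse and 0.584% in the hKLF6OE mouse, but those columns were thin, with 62.6% and 40.8% of rows at 0 and mitochondrial shares of 6.22% and 7.69%. For this reason cluster 6 and cluster 12 were compared with other cells only in the AAI mice, where 22.2% to 29.7% of their rows were at 0.

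Against normal PT, 44 members were compared in cluster 6, of which 29 were higher and 3 lower in both AAI mice. Of all 5008 rows compared, 43.3% were higher and 27.0% lower, so the cluster differs broadly and the members' 65.9% stands beside a high background. The median difference was 0.42 and 0.56 for members in the control and hKLF6OE mouse, and 0.19 and 0.15 for all rows. The higher members were nearly all outside the *Rbm* family. In the other families 28 of 32 compared members were higher and 0 lower. Among the 12 compared *Rbm* members 1 was higher and 3 were lower. In 7 compared members (*Clk2*, *Clk3*, *Hnrnpa0*, *Hnrnph2*, *Hnrnpul2*, *Rbm7* and *Rbm34*) normal PT was under 0.5 in both mice, so they passed the minimum through cluster 6 alone, which forces an upward difference. The *Srsf* and *Hnrnp* genes had drawn the study's attention in these same samples, so their counts are not independent evidence of direction. Clusters were also built from expression in which these genes took part.

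**Figure D1:**
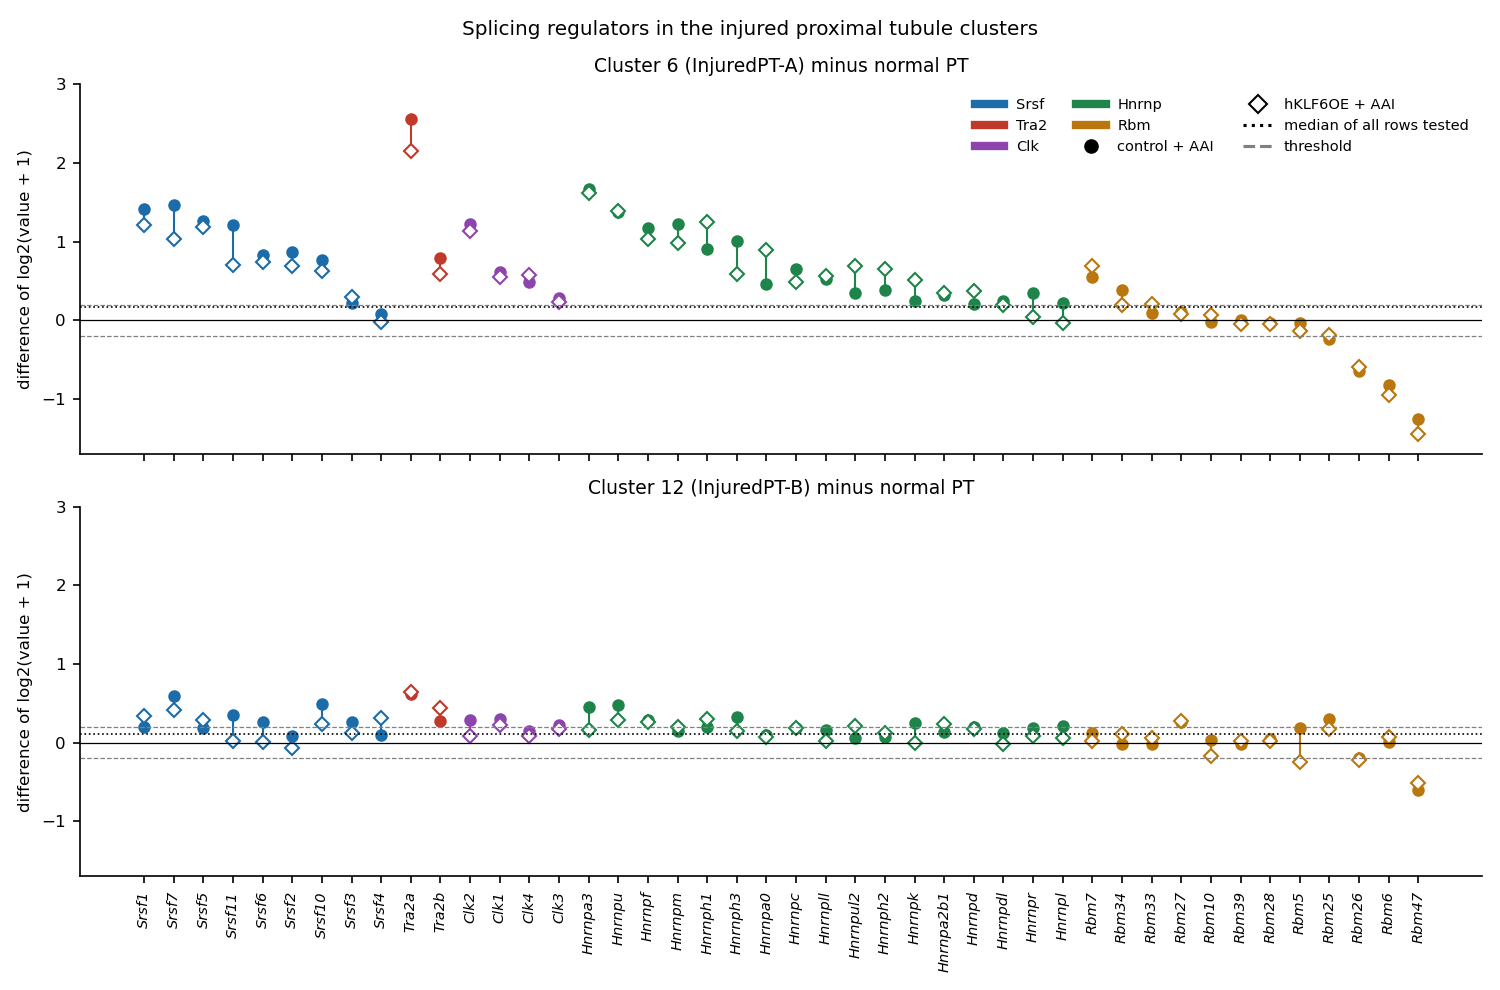
Difference of log2(value + 1) between cluster 6 (upper panel) or cluster 12 (lower panel) and normal PT for the 44 members compared in cluster 6, by family. Filled circles are the control + AAI mouse, open diamonds the hKLF6OE + AAI mouse, dashed lines the threshold of 0.2 and dotted lines the median of all rows compared; in cluster 6 all families but *Rbm* lie mostly above the dotted line, with *Tra2a* at 2.55 and 2.16.

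*Tra2a*, which binds GA-rich exonic enhancers, stood far above the other members. Its value in cluster 6 was 20.7 in the control + AAI mouse and 15.96 in the hKLF6OE + AAI mouse, against 2.70 and 2.80 in normal PT, a difference of 2.55 and 2.16. This was the 6th largest rise of all 5008 rows, ranked by the smaller of the 2 differences. No other cluster came near it. The next highest was MC, at 7.17 and 5.01. In cluster 6 without AAI *Tra2a* was at 2.22 and 0.814, but those are the thin columns that were not used for comparison with other cells. Its paralog *Tra2b* was at 3.46 and 2.94 in cluster 6 and 1.58 and 1.62 in normal PT, so it was also higher, by 0.79 and 0.59.

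Of the 9 *Srsf* genes compared, 8 were higher in cluster 6. *Srsf1*, the founding SR protein, had values of 3.38 and 3.06 against 0.646 and 0.753 in normal PT, a difference of 1.41 and 1.21. *Srsf7*, which also serves in mRNA export, had 4.02 and 2.72 against 0.823 and 0.806. *Srsf5* reached 7.91 and 8.43 from 2.70 and 3.15. These 3 genes had the largest differences among the *Srsf* members.
The SR-related *Srsf11* was at 8.14 and 5.23 against 2.93 and 2.81, so that its rise in the control mouse (1.22) exceeded that in the hKLF6OE mouse (0.71). *Srsf2*, which marks nuclear speckles, was at 5.53 and 4.63 against 2.58 and 2.49. *Srsf6* (2.93 and 2.85 against 1.21 and 1.31) and *Srsf10*, a splicing repressor when dephosphorylated (1.89 and 1.97 against 0.702 and 0.927), had rises between 0.62 and 0.83. The smallest counted rise was that of *Srsf3*, at 1.27 and 1.36 against 0.938 and 0.913. *Srsf4* did not move together in the mice, with 1.32 and 1.02 in cluster 6 and 1.20 and 1.06 in normal PT. In 6 of the 9 *Srsf* genes cluster 6 had the highest value of all 23 clusters in both AAI mice, as in 17 of all 44 compared members. The share of all rows with cluster 6 first is not given here, so these counts have no background.

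All 4 CLK kinases were higher in cluster 6. *Clk2* had the largest difference, from 0.434 and 0.483 in normal PT to 2.35 and 2.27, or 1.22 and 1.14. *Clk1*, whose own transcript is kept in the nucleus with introns retained, was at 2.90 and 2.77 against 1.55 and 1.56. *Clk4* was at 1.99 and 2.44 against 1.13 and 1.31, and *Clk3* at 0.595 and 0.624 against 0.310 and 0.378. *Clk2* had the largest and *Clk3* the smallest difference in both mice, and *Clk1* and *Clk4* changed places between them. *Clk3* overlaps the *Edc3* gene on the opposite strand, but shares 0% of its span with a gene on the same strand. Among the members compared in cluster 6, that share was largest in *Hnrnpul2* (30.9%) and *Srsf4* (16.4%). The part of overlaps in the values was not tested. *Clk2* and *Clk3* are among the genes that passed the minimum through cluster 6 alone.

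Of the 17 *Hnrnp* members compared, 14 were higher and 0 lower. *Hnrnpa3*, an A/B-type hnRNP, had 6.85 and 6.16 in cluster 6 against 1.46 and 1.32, a difference of 1.67 and 1.63 and the 28th largest rise of all rows. *Hnrnpu*, a nuclear scaffold protein, had 5.59 and 5.81 against 1.53 and 1.60, with almost the same difference in the mice (1.38 and 1.39). The G-run binding *Hnrnpf* (3.29 and 2.68 against 0.902 and 0.801) and *Hnrnph1* (3.17 and 5.26 against 1.23 and 1.62) were each at least 0.90 higher in both mice. *Hnrnpm*, which binds GU-rich sites, had 5.11 and 4.59 against 1.63 and 1.83. The 3 compared members that were not counted were *Hnrnpdl*, *Hnrnpr* and *Hnrnpl*, a regulator that binds CA repeats, with differences of 0.22 and -0.03 for *Hnrnpl*, 0.35 and 0.05 for *Hnrnpr* and 0.24 and 0.19 for *Hnrnpdl*. The other counted members ranged from *Hnrnpd*, at 0.21 and 0.37, to *Hnrnph3*, at 1.01 and 0.60.

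The *Rbm* genes were mixed. Of 34 rows only 12 reached the minimum for comparison, and of these 3 were lower, 1 was higher and 8 were not counted. Some of the *Rbm* rows under the minimum had higher values in cluster 6, such as *Rbm22*, a catalytic-core spliceosome protein, at 0.499 and 0.573 against 0.134 and 0.165 in normal PT. *Rbm47*, an RNA-binding protein that is also a cofactor of APOBEC1 in C-to-U editing, was at 4.32 and 3.58 in cluster 6 against 11.7 and 11.5 in normal PT, a fall of 1.26 and 1.45 on the log2 scale. *Rbm6*, a relative of the splicing factor RBM5, was at 1.80 and 1.71 against 3.94 and 4.24. *Rbm26*, which links polyadenylated nuclear RNA to decay, was at 2.90 and 3.20 against 5.10 and 5.33. In all 3 both AAI mice gave lower values in cluster 6 than in normal PT.
The single member counted as higher was *Rbm7*, a subunit of the nuclear exosome targeting complex, at 0.886 and 1.04 against 0.286 and 0.257. *Rbm39* was level (7.83 and 7.62 against 7.83 and 7.92). *Rbm25*, which helps choose 5′ splice sites, was at 4.14 and 4.53 against 5.08 and 5.30 and missed the threshold in the hKLF6OE mouse (-0.24 and -0.19). *Rbm27*, *Rbm33* and *Rbm34* had small positive differences in both mice, between 0.08 and 0.39, and *Rbm5*, *Rbm10* and *Rbm28* had differences between -0.13 and 0.07.

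**Figure D2:**
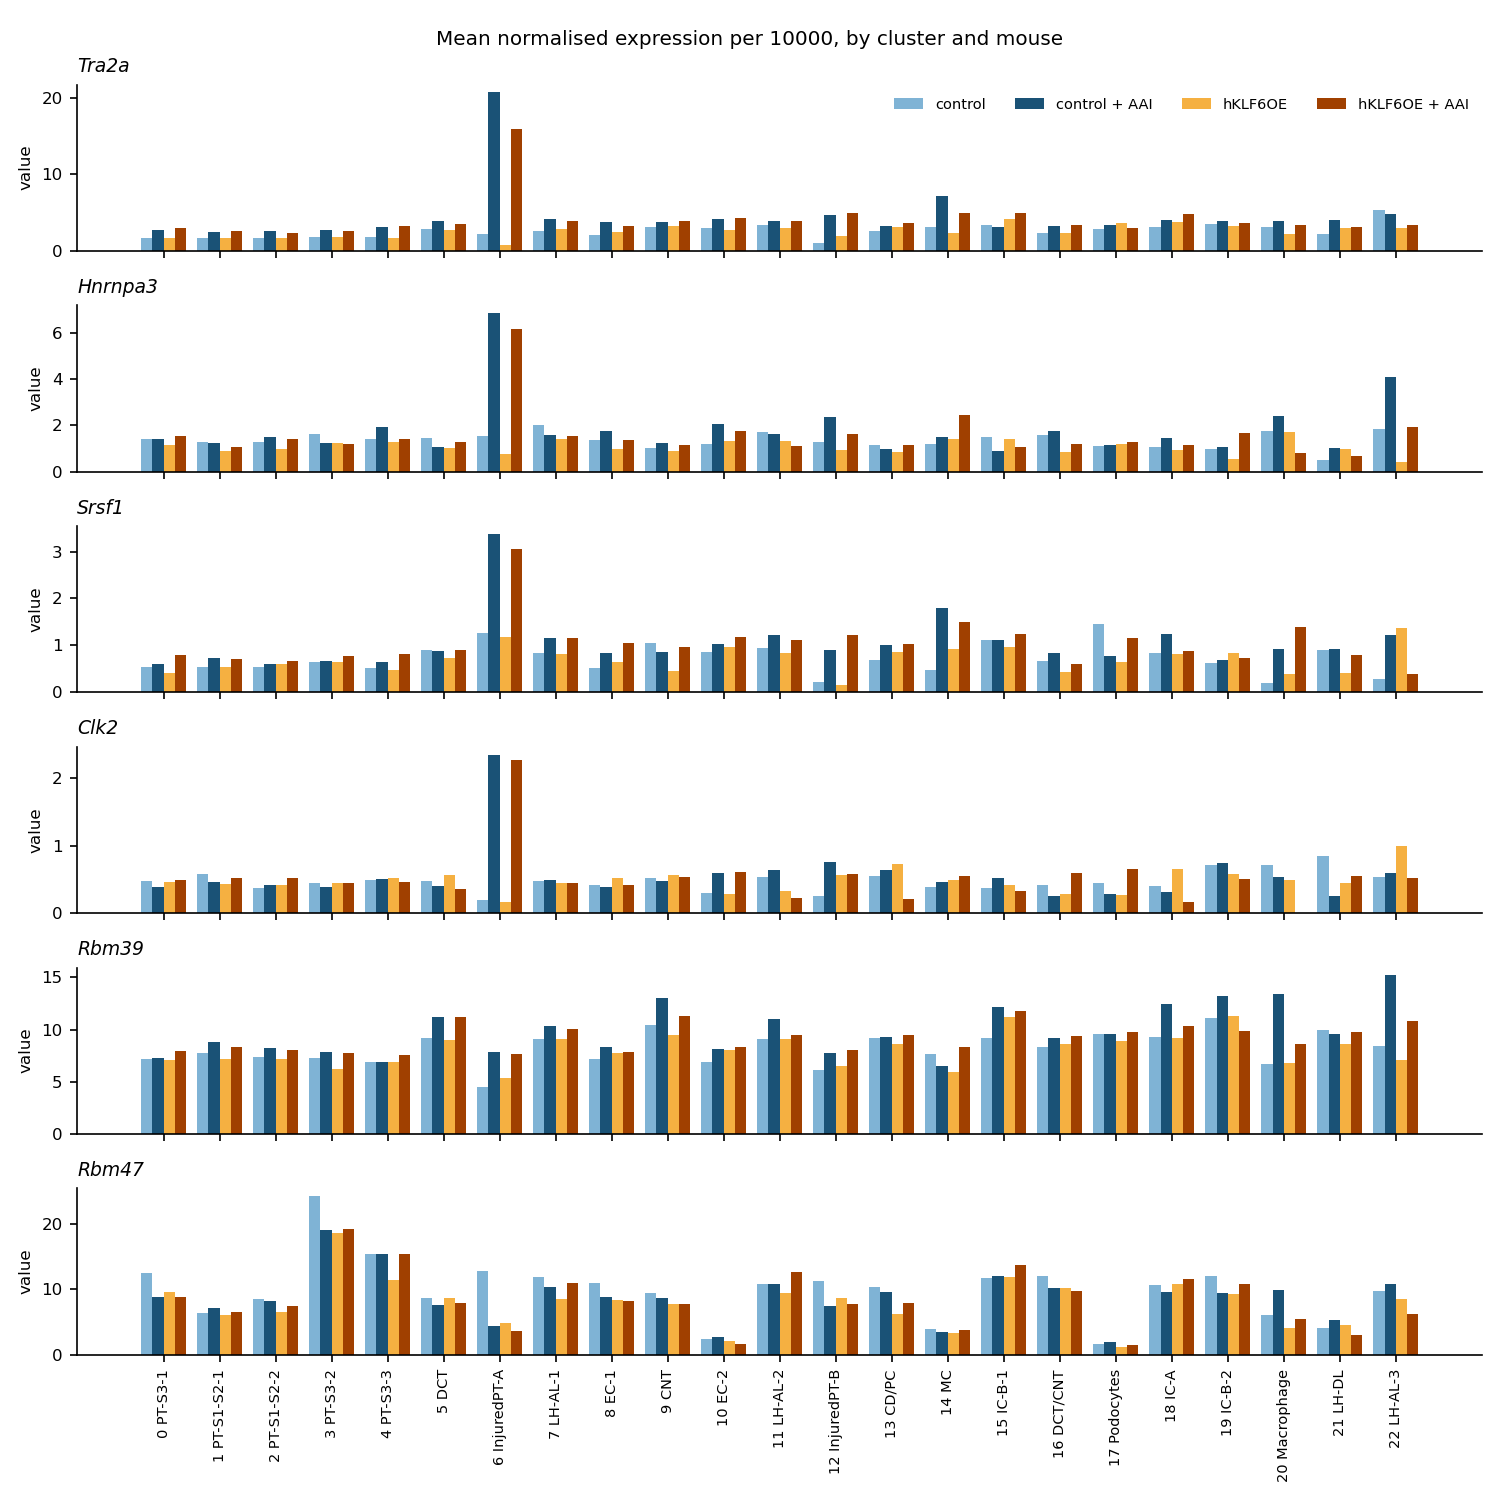
Mean normalised expression (per 10000) of 6 members in the 23 clusters, with 1 bar for each mouse. In cluster 6, *Tra2a*, *Hnrnpa3*, *Srsf1* and *Clk2* have their tallest bars in the AAI mice, *Rbm39* is level with other clusters, and *Rbm47* is lower than in any normal PT cluster of the same mice.

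Gene span moved with these differences in all rows. Using the annotated distance from first to last base, 73.6% of 1988 compared rows shorter than 30 kb were higher in cluster 6 and 6.29% lower. Among rows of 30 to 100 kb the shares were 32.2% and 23.1%, and among rows of 100 kb or more they were 6.74% and 71.7%. Of the 30 compared members shorter than 30 kb, 26 (86.7%) were higher and 0 lower, of 12 members of 30 to 100 kb 3 were higher and 2 lower, and of 2 longer members 0 were higher and 1 was lower. The median difference of the short members was 0.69 and 0.67, against 0.47 and 0.46 for all short rows, so the background for most members is the 73.6% of short rows rather than the 43.3% of all rows.
The median span of protein-coding members was 14.01 kb, against 25.5 kb for all protein-coding rows, and it was 6.81 kb for *Srsf* genes. *Tra2a* (20.1 kb) was the 4th largest rise of the short rows, *Hnrnpa3* (10.2 kb) the 21st and *Hnrnpu* (16.7 kb) the 36th, whereas *Srsf3* and *Clk3* were 1409th and 1386th of 1988. The 3 members that were lower span more than most members, at 70.6 kb for *Rbm26*, 99.7 kb for *Rbm6* and 156.6 kb for *Rbm47*, and *Rbm33* (102.1 kb) was not lower. Over the 44 compared members the difference and the log10 span had Pearson r = -0.576 and Spearman rho = -0.592, and over the 32 members other than *Rbm*, r = -0.101 and rho = -0.171. Over the 12 *Rbm* members r was -0.776 and rho -0.594. These are correlations across genes of the same 2 mice, and genes are not independent replicates. The part of span in the members' differences was not tested.

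**Figure D3:**
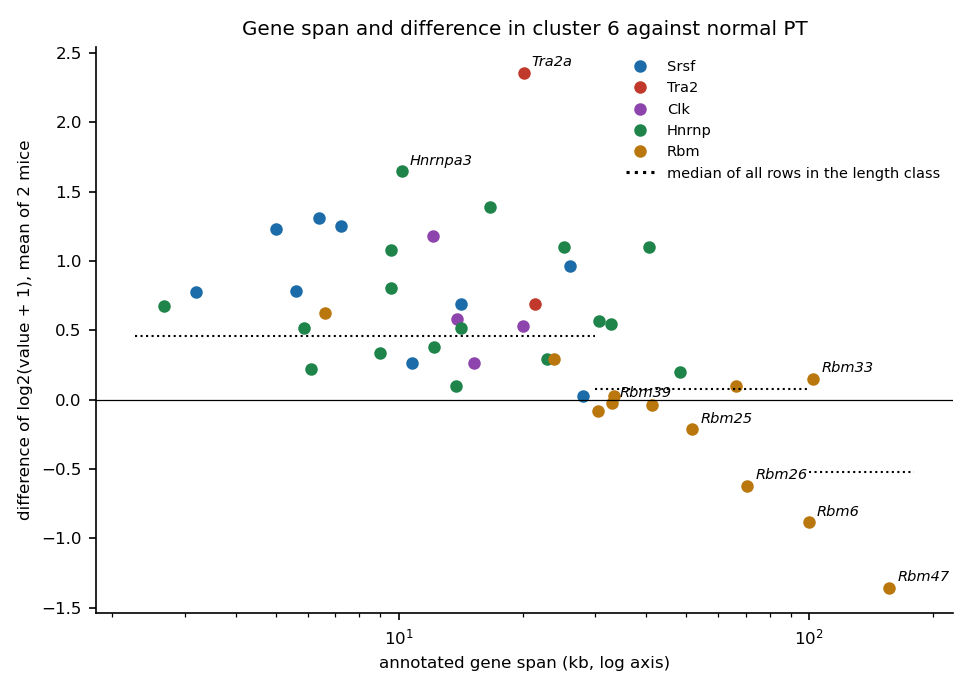
Annotated gene span (kb, log axis) against the difference of log2(value + 1) between cluster 6 and normal PT (mean of the 2 AAI mice) for the 44 compared members. Dotted lines are the median of all compared rows under 30 kb, from 30 to 100 kb and from 100 kb; *Tra2a* and *Hnrnpa3* lie far above the line for their class and *Rbm6* and *Rbm47* lowest.

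Other genes of RNA processing were taken as whole lists without the members, and are to be read beside the 43.3% of all rows and 73.6% of short rows that were higher in cluster 6. In a list of core spliceosome genes, 23 of 30 compared genes were higher (76.7%) and 1 lower. The largest rise was that of *Prpf38b*, at 3.55 and 3.69 against 1.80 and 1.68, and the fall was that of *Luc7l2*, a U1 snRNP partner, at 3.60 and 4.96 against 8.25 and 8.58. Among SR protein kinases and nuclear speckle proteins 17 of 30 were higher (56.7%) and 5 lower. The speckle scaffold *Son* was at 10.0 and 9.95 against 3.22 and 3.45. Among other splicing regulators 18 of 31 were higher (58.1%) and 4 lower, led by the poly(C)-binding *Pcbp2* (3.23 and 4.55 against 1.17 and 1.29), and *Pcbp3* fell the most (0.591 and 0.412 against 1.45 and 1.94). Among nonsense-mediated decay genes 3 of 8 were higher (37.5%) and 1 lower. *Smg6*, the endonuclease of that pathway, was at 1.22 and 1.58 against 4.98 and 5.13.

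Cluster 12 (InjuredPT-B) differed much less. Against normal PT, 10 of 41 compared members were higher (24.4%) and 1 lower, where all 4148 rows gave 23.4% higher and 13.1% lower, so the share of members higher was near the background. In the control mouse alone 21 were higher and 1 lower, and in the hKLF6OE mouse alone 15 and 3. No share of all rows is given for 1 mouse alone, so these counts have no background. The median of members was 0.20 and 0.17, and that of all rows 0.11 and 0.10. *Tra2a* was again first, at 4.71 and 4.93 against 2.70 and 2.80, a difference of 0.63 and 0.64. *Srsf7* was at 1.74 and 1.40 against 0.823 and 0.806, and *Hnrnpu* at 2.53 and 2.18 against 1.53 and 1.60. *Rbm47* was the member counted as lower, at 7.39 and 7.81 against 11.7 and 11.5. *Rbm26* was at 4.32 and 4.42 against 5.10 and 5.33 (-0.20 and -0.22), just short of the threshold in the control mouse. *Rbm6* (3.96 and 4.52 against 3.94 and 4.24) did not have the low values seen in cluster 6.

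Set directly against cluster 12, cluster 6 had 23 of 45 compared members higher and 4 lower, where all 4977 rows gave 30.6% higher and 26.7% lower. In 3 of the 45 (*Hnrnpa0*, *Hnrnph2* and *Rbm7*) only cluster 6 reached the minimum, which forces an upward difference. The largest differences were those of *Tra2a* (1.93 and 1.52), *Hnrnpa3* (1.23 and 1.46) and *Clk2* (0.94 and 1.05). The 4 lower members were *Rbm6*, *Rbm47*, *Rbm26* and *Rbm25*. *Rbm25* was at 4.14 and 4.53 in cluster 6 and 6.48 and 6.12 in cluster 12. Both clusters share the same mice, so this comparison and those with normal PT are not separate evidence.

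The differences of cluster 6 were not limited to the PT reference. Against the cell types outside the PT, 25 of 44 compared members were higher and 3 lower, where all 5402 rows gave 41.4% higher and 29.1% lower. All 25 were among the 29 higher than normal PT. Both comparisons use the same cluster 6 values of the same mice, so this overlap is not separate evidence. No share of all rows is given for it. In 6 of the 44 (*Clk2*, *Clk3*, *Hnrnpa0*, *Hnrnph2*, *Rbm7* and *Rbm34*) only cluster 6 reached the minimum, which forces an upward difference. *Tra2a* was at 4.01 and 3.81 outside the PT, 2.12 and 1.82 below cluster 6. *Hnrnpa3* was at 1.60 and 1.34 outside, a difference of 1.60 and 1.61, and *Clk2* was at 0.474 and 0.417, a difference of 1.19 and 1.21. The lower members were *Rbm6* (4.33 and 4.58 outside), *Rbm47* (8.18 and 7.68 outside) and *Rbm39*. *Rbm39*, a partner of the U2AF splice-site factors, was at 10.8 and 9.77 outside against 7.83 and 7.62 in cluster 6.
For cluster 12 the same comparison gave 5 of 41 members higher and 1 lower, where all 4703 rows gave 27.9% higher and 21.1% lower, so fewer members were counted than the background share. In the control mouse alone 15 were higher and 1 lower, and in the hKLF6OE mouse alone 10 and 2, again without a background share. *Rbm25* led, at 6.48 and 6.12 against 3.65 and 4.13 outside, followed by *Srsf7* (1.74 and 1.40 against 1.08 and 0.836) and *Tra2b* (2.12 and 2.57 against 1.42 and 1.61). *Rbm39* was lower, at 7.73 and 8.03. *Hnrnpr* (1.85 and 1.71 against 2.22 and 1.96) and *Rbm33* (0.805 and 0.995 against 1.04 and 1.06) ranked next among the falls and were not counted.
In cluster 6 of the AAI mice, some markers of other cell types were above their level in normal PT. The 3 thick ascending limb markers summed to 10.3 and 13.9, against 4.17 to 9.32 and 3.74 to 7.93 in the normal PT clusters of the same mice. The 2 distal convoluted tubule markers summed to 2.30 and 3.23, against at most 1.74 and 1.92. The 2 connecting tubule markers summed to 2.99 and 5.91, against at most 2.16 and 3.56. The 3 podocyte markers summed to 0.603 and 0.749, against at most 0.514 and 0.328, and the 3 mesangial markers to 0.173 and 0.206, against at most 0.139 and 0.14. Principal cell and both intercalated lists were above normal PT in the hKLF6OE mouse only. The 4 macrophage markers summed to 0.263 and 0.217, against at most 0.326 and 0.160, and the 5 endothelial markers to 1.00 and 1.49, against at most 1.5 and 1.64. In cluster 6, 1 mesangial marker was at 0 in the hKLF6OE + AAI mouse, and no other of these markers was at 0. The 6 PT markers summed to 149 and 153, and the mitochondrial share was 1.84% and 2.34%, against at most 1.59% and 1.43% in normal PT. The part of these in the members' differences was not tested.

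Outside the PT, AAI was followed by few differences in splicing regulators. Of 40 members compared in the mean over 16 clusters, 2 were higher with AAI in both pairs of mice and 1 lower, where all 4363 rows gave 5.91% higher and 4.42% lower, so the members lay near the background. *Tra2a* was at 3.03 in the control and 4.01 in the control + AAI mouse, and at 2.98 and 3.81 in the hKLF6OE pair, a difference of 0.31 and 0.27. *Rbm26* went from 2.65 to 3.39 and from 2.37 to 3.14. *Rbm4b*, a paralog of the exon-choice regulator RBM4, went from 0.518 to 0.245 and from 0.529 to 0.175. Both AAI mice lay above both mice without AAI in 19 of the 40 members, *Tra2a* and *Rbm26* among them, against 36.28% of all rows, and below in 4, *Rbm4b* among them, against 17.72% of all rows.
The next members in rank were not counted. *Srsf1* (0.772 to 1.03 and 0.759 to 1.01) was just short of the threshold on the high side. On the low side were *Hnrnpk*, a poly(C)-binding protein (0.939 to 0.730 and 0.925 to 0.770), and *Srsf7* (1.22 to 1.08 and 1.13 to 0.836), with differences of -0.16 and -0.12 and of -0.09 and -0.21. The pairs were not alike in size. In the control pair alone 4 of 40 members were higher and 1 lower, and in the hKLF6OE pair alone 16 and 2. Opposite signs in the pairs were seen in 16 members. These counts have no background share.

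Cluster by cluster, *Tra2a* was the member most often higher with AAI. It was higher in both pairs in 13 of the 16 outside clusters and lower in both in 0, and passed the threshold in 8 (DCT, LH-AL-1, EC-1, EC-2, MC, DCT/CNT, IC-A and Macrophage). The MC cluster, named for mesangial cells, had the largest change, from 3.102 to 7.17 and from 2.34 to 5.01. In podocytes the pairs disagreed (2.88 to 3.34 and 3.65 to 2.94). *Rbm26* passed in 6 outside clusters, *Hnrnpm* in 7 (and was lower in Macrophage) and *Rbm25* in 4. *Rbm39* was higher in both pairs in 13 clusters and passed in 4 (DCT, CNT, Macrophage and LH-AL-3). *Rbm4b* was lower in both pairs in 13 clusters, but reached the minimum in only 4 of the 16. In those (EC-1, IC-B-1, IC-A and LH-AL-3) it was counted as lower. Counts of clusters by direction alone have no background share.
The share of all rows counted as higher with AAI was 9.10% in DCT, 6.83% in LH-AL-1, 7.43% in EC-1, 9.43% in CNT, 11.78% in EC-2, 8.52% in LH-AL-2, 11.42% in CD/PC and 14.74% in MC. It was 9.94% in IC-B-1, 7.69% in DCT/CNT, 9.60% in podocytes, 11.83% in IC-A, 12.94% in IC-B-2, 17.49% in Macrophage, 15.99% in LH-DL and 17.11% in LH-AL-3. The members counted as higher ranged from 2 of 39 in IC-B-2 to 13 of 43 in MC. Members counted as lower were most in LH-DL, with 7 of 42 lower and 7 higher, where 13.9% of all rows were lower. The 6 PT markers summed to less with AAI in 16 of 16 outside clusters in either pair, and the mitochondrial share over the outside clusters was 1.28% to 3.80% in the control and 0.894% to 2.90% in the control + AAI mouse, and 1.70% to 5.86% and 0.731% to 3.00% in the hKLF6OE pair. It was lower with AAI in 31 of 32 pairs of the same cluster. Their part in the members' differences was not tested.

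**Figure D4:**
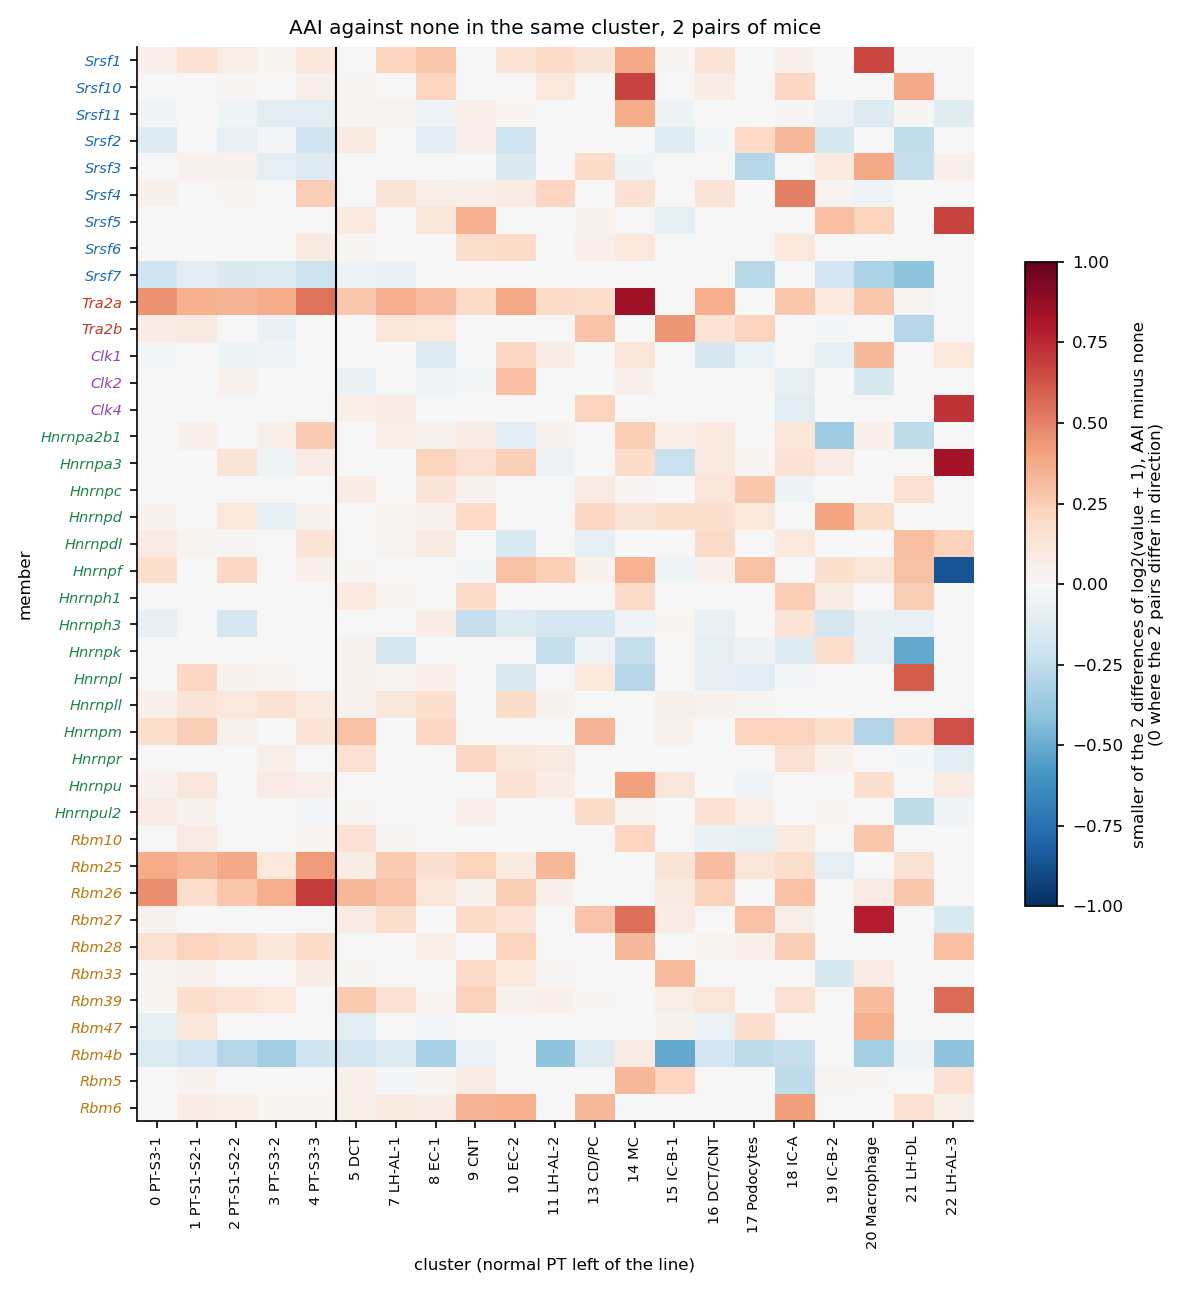
AAI against none in the same cluster for the 40 members compared outside the PT (rows, coloured by family) in 5 normal PT and 16 outside clusters (columns). Colour gives the smaller of the differences of log2(value + 1) in the control and hKLF6OE pairs, and is white where they have opposite signs; *Tra2a* is red in 5 of 5 normal PT and 13 of 16 outside clusters, *Rbm4b* mostly blue.

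In normal PT, AAI left most members level too. Of 37 compared, 3 were higher and 0 lower, where all 3892 rows gave 7.66% higher and 5.83% lower. The control pair alone gave 6 higher and the hKLF6OE pair alone 10, without a background share. *Tra2a* went from 1.76 to 2.70 in the control pair and from 1.70 to 2.80 in the hKLF6OE pair, and it passed the threshold in 5 of 5 normal PT clusters. *Rbm26* went from 3.57 to 5.10 and from 3.25 to 5.33, and *Rbm25* from 3.84 to 5.08 and from 3.89 to 5.30. In each of the 3 both AAI mice lay above both mice without AAI, as they did in 17 of the 37 members and in 34.92% of all rows, and 4 members and 22.02% of all rows lay below. *Srsf7* went the other way, from 1.08 to 0.823 and from 1.06 to 0.806, and was lower in both pairs in 5 of 5 clusters, but its differences (-0.19 and -0.19) stayed inside the threshold. *Srsf2* (2.97 to 2.58 and 2.80 to 2.49) and *Srsf11* (3.37 to 2.93 and 3.01 to 2.81) had smaller falls. *Srsf7* was thus lower in normal PT with AAI and higher in cluster 6 than in that normal PT, and *Rbm26* the reverse. The differences share normal PT of the AAI mice, so they are not separate. *Rbm26* in cluster 6 was at 2.90 and 3.20, against 3.57 and 3.25 in normal PT without AAI.

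Overexpression of hKLF6 was followed by no counted difference. Outside the PT, 0 of 39 compared members were higher and 0 lower in hKLF6OE than in control mice across both treatments, where all 4196 rows gave 0.286% higher and 1.29% lower. In normal PT it was 0 and 0 of 37, where all 3690 rows gave 0.650% and 1.92%. The members thus lay near the background in both. Taken alone, the pair without AAI gave 10 members lower outside the PT and the AAI pair 1 higher, without a background share. In single pairs the differences outside the PT ran from *Srsf6* at -0.40 without AAI to *Hnrnph1* at 0.31 with AAI, and neither kept its sign in the other pair. *Hnrnpa3* ranked first among members with a fall in both pairs, from 1.34 to 1.07 without AAI and from 1.60 to 1.34 with AAI, followed by *Rbm26* (2.65 to 2.37 and 3.39 to 3.14) and *Rbm47* (8.54 to 7.16 and 8.18 to 7.68). Of the members above 0 in both pairs, *Hnrnpul1*, *Srsf3* and *Hnrnpl* ranked first, with at most 0.09 in each pair, and *Hnrnpul1* passed the minimum through the hKLF6OE mice alone. *Tra2a* was at 3.03 and 2.98 without AAI and 4.01 and 3.81 with it. The pairs differed in their drift, and all rows drifted too. The median difference of members was -0.080 without AAI and 0.033 with AAI, and that of all rows -0.049 and -0.009. Without AAI 5 of 39 members were above 0 and the differences ran from -0.40 to 0.04. With AAI 21 were above 0 and they ran from -0.18 to 0.31. These counts above 0 have no background share.

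In the mice without AAI, few members differed between normal PT and the mean of the outside clusters. That mean does not show how members varied among single cell types. Outside against normal PT in the mice without AAI, 3 of 39 compared members were higher and 3 lower (7.69% each), where all 4442 rows gave 24.4% higher and 22.4% lower. The control mouse alone gave 7 higher and 3 lower, and the hKLF6OE mouse alone 4 and 5, without a background share. *Tra2a* was at 3.03 and 2.98 outside and 1.76 and 1.70 in normal PT, *Rbm39* at 8.83 and 8.67 against 7.29 and 6.90, and *Hnrnpr* at 2.03 and 1.97 against 1.60 and 1.41. *Rbm47* was at 8.54 and 7.16 against 13.4 and 10.4, *Rbm26* at 2.65 and 2.37 against 3.57 and 3.25, and *Srsf11* at 2.79 and 2.42 against 3.37 and 3.01.

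*Rbm47* had the widest range of all members over the 21 clusters that are not injured PT. It was highest in PT-S3-2, at 24.2 in the control and 18.6 in the hKLF6OE mouse, and on average next in PT-S3-3, at 15.4 and 11.45, where IC-B-1 (11.9) was above PT-S3-3 in the hKLF6OE mouse. In the control mouse the tubule clusters outside the PT lay between DCT at 8.66 and DCT/CNT at 12.1, except for the thin LH-DL (4.11 and 4.51). The lowest values were those of podocytes (1.66 and 1.20), EC-2 (2.38 and 2.01) and MC (3.94 and 3.23), each below every tubular cluster of the same mouse. EC-1, which carries PT markers, was at 11.01 and 8.35. In AAI mice PT-S3-2 kept the top place, at 19.02 and 19.2.

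*Rbm20*, which regulates titin splicing in the heart, was near 0 in normal PT and present in distal tubule. In the 5 normal PT clusters it was at most 0.0190 in the control and 0.0391 in the hKLF6OE mouse. In the same mice it was 0.580 and 0.599 in DCT, 0.597 and 0.411 in LH-AL-1, 0.535 and 0.577 in CNT and 0.520 and 0.443 in IC-A. Podocytes (0.0361 and 0.0193) and MC (0.0267 and 0) were as low as the PT. The thin LH-DL cluster was highest in the control mouse (1.51) and IC-B-1 in the hKLF6OE mouse (1.05), so the order of the distal clusters was not the same in the mice. The AAI mice had the same split, with DCT at 0.591 and 0.534 and normal PT at most 0.0256 and 0.0368.

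In the other families the ranges were smaller than that of *Rbm47* and often set by thin clusters. No range over all rows is given. *Clk1* was highest in podocytes, at 3.22 and 3.32, above the next cluster (IC-B-2 on average, 2.17 and 2.27) in both mice, and at 1.49 and 3.15 in podocytes with AAI, so the control + AAI mouse did not keep it. *Hnrnpr* was highest on average in LH-AL-1 (2.49 and 3.76), but in the control mouse LH-AL-3 (2.89), podocytes (2.65), LH-DL (2.64) and CD/PC (2.52) were above it. *Clk4*, *Clk3*, *Hnrnpk*, *Hnrnph3*, *Rbm27*, *Srsf7*, *Tra2a* and *Tra2b* had the other wide ranges of their families. For *Hnrnpk*, *Hnrnph3*, *Rbm27* and *Tra2a* the highest cluster by the mean of both mice was LH-AL-3 and for *Srsf7* it was LH-DL, both thin. *Tra2b* was highest on average in Macrophage, at 2.82 in the control and 1.54 in the hKLF6OE mouse, but in the hKLF6OE mouse IC-B-2 (2.55) was above it.

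**Figure D5:**
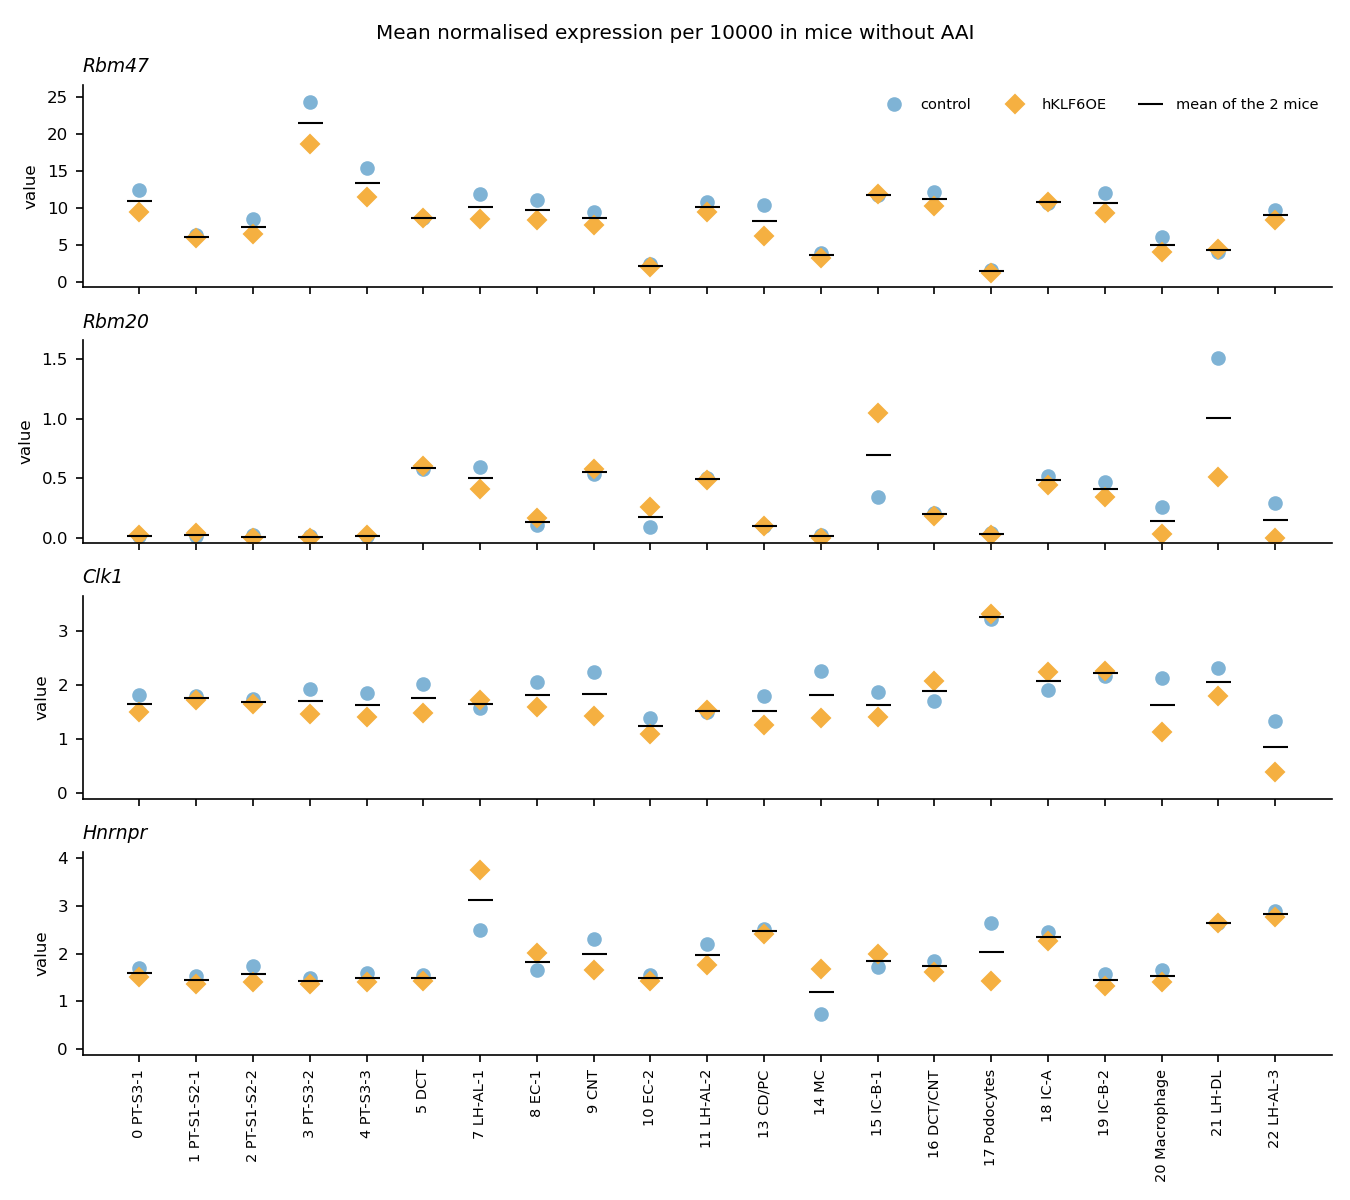
Mean normalised expression (per 10000) of *Rbm47*, *Rbm20*, *Clk1* and *Hnrnpr* in the 21 clusters that are not injured PT, in the control mouse (circles) and the hKLF6OE mouse (diamonds) without AAI, with the mean as a black bar. *Rbm47* peaks in PT-S3-2 and is lowest in podocytes, *Rbm20* is near 0 in the 5 normal PT clusters, and *Clk1* is highest in podocytes.

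The promoter of *Tra2a*, the member with the largest difference, is shown with its GC boxes (GGGCGG on either strand, a site for SP and KLF family factors) in capitals. The sequence is from RefSeq, build GRCm38.p6, and covers the 250 bases before the start site.
Tra2a promoter chr6:49264053-49264302 (-): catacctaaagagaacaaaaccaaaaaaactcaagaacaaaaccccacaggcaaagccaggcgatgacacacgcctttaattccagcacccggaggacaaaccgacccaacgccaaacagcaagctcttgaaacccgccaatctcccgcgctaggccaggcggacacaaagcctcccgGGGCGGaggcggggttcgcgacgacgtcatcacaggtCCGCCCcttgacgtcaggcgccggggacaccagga
Over the RefSeq window of 250 bases before to 50 after the start, 60 members had 76 promoters. A GC box was present in 51 of them (67.1%), against 35.7% of all 32851 promoters, which include those of non-coding genes. CCACCC was present in 27.6% against 31.5%, CCAAT in 44.7% against 37.4%, and the AP-1 motif TGANTCA in 2 promoters (2.63%) against 7.81%. The Kaiso motif, a CG-containing palindrome, was present in 4 promoters (5.26%) against 0.466%. Motifs were searched on both strands, CCACCC can overlap a GC box only in part, and a match is a description of the sequence and not of binding.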

How the data were processed

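The authors aligned single-nucleus RNA-seq reads to a mouse mm10 pre-mRNA reference with Cell Ranger, which counts intronic reads, and clustered nuclei with Seurat. The nuclei they kept had 200 to 6000 genes and at most 10% mitochondrial reads. The deposited table holds a signal per gene, cluster and mouse, the mean normalised expression over nuclei, in which each of 92 columns sums to 10000. No counts, numbers of nuclei or per-nucleus values were used here, so the depth behind each value is unknown and no interval is given. Removal of doublets from these nuclei is not given in the sources used here. From 19632 rows, 23 whose names had become dates were left out.

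Differences of log2(value + 1) were computed in Python 3 with pandas and numpy, with a minimum of 0.5 and a threshold of 0.2 in both mice or pairs. With 1 mouse per condition no test was run. An exact two-sided permutation of 2 mice against 2 could not give a p below 0.333. The comparison code was tested on simulated data. Named members were, in cluster 6, every compared *Srsf*, *Tra2* and *Clk* gene with the 5 largest rises and up to 3 largest falls of *Hnrnp* and of *Rbm*, and elsewhere the 3 largest rises and falls, ranked by the smaller of the 2 absolute differences. For cell types they were the 3 members of each family with the widest range. Any further gene in the text was picked with its values in view. The members, the gene lists and the cell type markers were chosen with earlier results of these data known. Spans, overlaps and decay transcripts came from GENCODE M21. Alternatives were another pseudocount, minimum or threshold, centring, other reference clusters, medians, and each mouse or pair alone.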

Additional observations from a re-analysis of the deposited data

How the results depend on the processing

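Of 150 recomputed counts of members higher or lower, 96 stayed within 1.5 times the reported count and 54 moved. The shares of all rows were not recomputed under these settings. A higher minimum leaves fewer members to compare, and a higher threshold cannot raise the count of any set. A changed count below is therefore not a change relative to the background. Of 406 recomputed differences of named members, 261 kept their size, 94 grew, 51 shrank and 0 reversed. A difference kept its size when it moved by no more than the standard deviation of the 2 mice or pairs. Each mouse or pair alone meets this by construction. Only counted differences could be labelled reversed, and neither 1 mouse or pair alone nor another pseudocount can reverse them. The tally is therefore partly fixed in advance. The causes of the moves were not tested unless the setting itself removes genes or clusters.

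For cluster 6 against normal PT, the 29 higher members became 18 with a minimum of 2 and 19 with a threshold of 0.5, and the 3 lower became 5 after centring on the median of all genes. Each mouse alone gave 34 to 36 higher and 3 to 4 lower. Against the outside cell types, the 25 higher became 16 with a threshold of 0.5 and the 3 lower became 5 without a minimum, and each mouse alone gave 29 to 32 higher and 3 lower.

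For cluster 12 against normal PT, the 10 higher became 21 with a pseudocount of 0.1, 3 with a minimum of 2, 1 with a threshold of 0.5 and 2 after centring, and 15 to 21 in 1 mouse alone. The 1 lower became 2 with a pseudocount of 0.1, after centring and against the 3 PT-S3 clusters, and 1 to 3 in 1 mouse alone. Against the outside cell types, the 5 higher became 15 with a pseudocount of 0.1, 3 with a minimum of 2, 0 with a threshold of 0.5, 3 after centring and 9 with the median over clusters, and 10 to 15 in 1 mouse alone. The 1 lower became 2 without a minimum and after centring, 0 with a threshold of 0.5, and 1 to 2 in 1 mouse alone.

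For AAI outside the PT, the 2 higher became 9 with a pseudocount of 0.1 and 0 with a threshold of 0.5, and 4 to 16 in 1 pair alone. The 1 lower became 2 with a pseudocount of 0.1, 0 with a minimum of 2, a threshold of 0.5 or the median over clusters, and 1 to 2 in 1 pair alone. Without the 4 thin clusters, an alternative chosen after seeing the data, 1 was higher and 0 lower. For AAI in normal PT, the 3 higher became 6 with a pseudocount of 0.1, 0 with a threshold of 0.5 and 6 to 10 in 1 pair alone. The 0 lower became 1 with a pseudocount of 0.1, without a minimum and in the PT-S3 clusters, and stayed 0 in each pair alone.

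For hKLF6OE outside the PT, the 0 lower became 1 with a pseudocount of 0.1 and with the median over clusters, and single pairs gave 0 to 1 higher and 0 to 10 lower. For outside against normal PT, the 3 higher became 7 with a pseudocount of 0.1, 1 with a threshold of 0.5, 5 without EC-1 and Macrophage and 4 to 7 in 1 mouse alone. The 3 lower became 0 with a threshold of 0.5, 1 with the median over clusters and 3 to 5 in 1 mouse alone.

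Differences were taken within mice, or within pairs matched for genotype or treatment, and no model was fitted over the 4 mice. With no counts or numbers of nuclei, the precision of thin clusters cannot be stated. The smallest value above 0 in a column ranged up to 0.165 in outside clusters.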
